A study of Mus musculus with 3 samples.

Results

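The matrix metalloproteinases (Mmp), the ADAM and ADAMTS proteases, the ADAMTS-like proteins (Adamtsl) and the tissue inhibitors of metalloproteinases (Timp) were examined in MC3T3-E1, a wild-type line of preosteoblasts from mouse calvaria. The genes were chosen by symbol, as any listed gene named Mmp, Timp, Adam, Adamts or Adamtsl followed by a number. This rule uses no measured value, but the families were chosen with earlier results of these data known. This gave 56 of the 15287 genes in the table, made up of 18 Mmp, 3 Timp, 17 Adam, 14 Adamts and 4 Adamtsl genes. RNA-seq was performed on 3 libraries, with 1 library per condition. Untreated cells gave the CTL library. The Ti library was made after 24 h of exposure to titanium (Ti) particles, 10 μg/cm². For the Ti+Se-Met library, selenomethionine (Se-Met), an amino acid form of selenium, was given at 5 μM for 24 h together with the same amount of particles. No group held particle-free cells with Se-Met, and all 3 libraries came from the one cell line. Since each condition had 1 library, the differences below were not checked against replicates, and they carry no p-value.

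Metalloproteinases are zinc enzymes that cut proteins outside the cell. The MMPs and the ADAMTS proteases mainly remodel the extracellular matrix, whereas membrane-bound ADAMs release the outer parts of growth factors, receptors and adhesion molecules from the cell surface, which is called shedding. TIMPs block the active site of these enzymes, and ADAMTS-like proteins resemble ADAMTS proteases but lack the protease domain. In bone, osteoblasts use Mmp13 and Mmp14 to cut fibrillar collagen, and Mmp9 is best known from osteoclasts.

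Values are FPKM, in which fragments are divided by transcript length and by the size of the library, so levels of different genes can be set side by side per length. A difference is given as the ratio of FPKM between libraries, and a gene was counted as higher or lower when its log2(FPKM + 1) differed by 2-fold or more. Only genes that reached 1 FPKM in any library were counted, which left 32 of the 56 genes and 11137 of all genes. The value just inside this limit was the 1.25 FPKM of Adam19 in CTL, and the value just outside was the 0.98 FPKM of Adamts9 in CTL. Read counts were not used here, so the depth was estimated from the smallest steps between low FPKM values, at 14200000 fragments in CTL, 14700000 with Ti and 10450000 with Ti+Se-Met. The 95% interval beside a ratio is an exact conditional binomial interval on the estimated fragments. It covers counting error only, and it compares libraries, not conditions.

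The label of the cells was set against marker genes. Of 12 osteoblast markers, 12 were listed and 8 reached 1 FPKM, led by Col1a2, Col1a1, Spp1 and Sparc. Sp7, Ibsp, Bglap and Pth1r stayed below 1 FPKM in each library. Alpl reached 1 FPKM in CTL alone, with 1.51 FPKM in CTL, 0.20 with Ti and 0.20 with Ti+Se-Met. Of 12 macrophage and osteoclast markers 7 were listed and 3 reached 1 FPKM (Lyz2, Cd14 and Ctsk, which other cells express too), and the summed FPKM of the list was 50.32 in CTL, 61.50 with Ti and 53.97 with Ti+Se-Met. Of the defining macrophage and osteoclast markers, Cd68 did not exceed 0.42 FPKM, Csf1r 0.10 and Acp5 0.06, and Ptprc, Adgre1, Itgam, Calcr and Dcstamp were not listed. The endothelial markers summed to 0.20, 0.15 and 0.27 FPKM. In bulk RNA, fewer cells of a type and less RNA per cell cannot be told apart.

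The promoters were examined first, because several MMP genes are neighbours and their promoters can be read together. RefSeq promoter windows of 300 bases (250 before and 50 after the annotated start, build GRCm38.p6) were found by symbol for 36 of the 56 genes, at 41 start sites. They were searched on both strands for the AP-1 motif (TGACTCA or TGAGTCA), the site bound by Fos and Jun proteins, and for the RUNX motif (ACCACA or TGTGGT), the core site of Runx2, the main transcription factor of osteoblasts. Among the genes without a window were Mmp2, Mmp9, Mmp16, Mmp17 and Mmp19, which were therefore not searched. No AP-1 match overlapped a RUNX match. The AP-1 motif was found in promoters of 6 genes, Mmp3, Mmp7, Mmp10, Mmp12, Mmp13 and Adam19, and it was present in 5.20% of the 32851 promoters of the reference. The RUNX motif was found in promoters of 8 genes, Mmp7, Mmp13, Mmp14, Mmp23, Adam15, Adam19, Adam1a and Adam21, against 16.8% of all promoters.

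Of the Mmp genes with a window, the 5 with an AP-1 motif all lay in one run of neighbouring Mmp genes on chromosome 9. The order of the run was Mmp13, Mmp12, Mmp3, Mmp10, Mmp8, Mmp20 and Mmp7 among the genes listed. The 120 bases before the start site are printed for the 5 genes with an AP-1 motif, 5′ to 3′, to show how close to the start the motif lies. Motifs are in capitals, the AP-1 motif as TGACTCA or TGAGTCA and the RUNX motif as ACCACA. For Mmp12 and Mmp7, which have more than one annotated start site, the site with the AP-1 motif is shown.
Mmp13 (chr9:7272394-7272513, plus strand): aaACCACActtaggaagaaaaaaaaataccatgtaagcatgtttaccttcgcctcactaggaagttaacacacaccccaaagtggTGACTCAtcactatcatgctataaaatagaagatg
Mmp12 (chr9:7347254-7347373, plus strand): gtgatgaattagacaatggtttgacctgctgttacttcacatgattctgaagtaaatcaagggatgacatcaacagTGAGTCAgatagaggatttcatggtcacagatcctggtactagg
Mmp3 (chr9:7445702-7445821, plus strand): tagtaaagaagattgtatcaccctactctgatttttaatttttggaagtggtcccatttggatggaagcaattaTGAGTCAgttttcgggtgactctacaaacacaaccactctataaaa
Mmp10 (chr9:7502222-7502341, plus strand): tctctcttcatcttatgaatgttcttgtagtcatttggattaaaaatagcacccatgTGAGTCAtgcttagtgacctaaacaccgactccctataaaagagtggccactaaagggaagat
Mmp7 (chr9:7691970-7692089, plus strand): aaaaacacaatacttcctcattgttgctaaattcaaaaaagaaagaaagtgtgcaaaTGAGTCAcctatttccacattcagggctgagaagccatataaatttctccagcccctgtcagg
The AP-1 motif ended 29 bases before the start in Mmp13, 38 in Mmp12, 40 in Mmp3, and 57 in both Mmp10 and Mmp7. Of the 5 printed sequences, that of Mmp13 alone held a RUNX motif as well. The other start site of Mmp7, not printed, held a RUNX motif from 46 to 41 bases before the start. Mmp13 was the only listed gene of the run that reached 1 FPKM, and Mmp7 had at most 0.31 FPKM. A match is a description of letters, not of a bound site.

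The windows of Mmp14, Timp1, Timp3 and Adamts1 are printed for contrast, since these genes are among the most abundant or most different members described below. In these windows Mmp14 held a RUNX motif in capitals, and neither motif was found in Timp1, Timp3 or Adamts1.
Mmp14 (chr14:54431478-54431597, plus strand): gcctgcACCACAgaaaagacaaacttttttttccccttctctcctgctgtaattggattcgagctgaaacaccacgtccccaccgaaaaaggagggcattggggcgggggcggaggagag
Timp1 (chrX:20870046-20870165, plus strand): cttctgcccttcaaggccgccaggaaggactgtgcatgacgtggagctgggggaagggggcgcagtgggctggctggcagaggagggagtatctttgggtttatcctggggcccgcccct
Timp3 (chr10:86300292-86300411, plus strand): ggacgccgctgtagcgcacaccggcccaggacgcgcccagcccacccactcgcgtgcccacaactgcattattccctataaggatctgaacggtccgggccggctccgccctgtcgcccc
Adamts1 (chr16:85803114-85803233, minus strand): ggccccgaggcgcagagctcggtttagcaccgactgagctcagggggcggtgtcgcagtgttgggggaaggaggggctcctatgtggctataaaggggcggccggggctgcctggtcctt
The 300-base promoters of these genes were also richer in G and C, with 56.0% in Mmp14, 55% in Timp1, 67.0% in Timp3 and 64.7% in Adamts1, whereas the 5 printed Mmp promoters with an AP-1 motif ranged from 37.7% in Mmp10 to 43.7% in Mmp13. The Adam19 promoter with an AP-1 motif did not share this, with 60.3%.

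**Figure D1:**
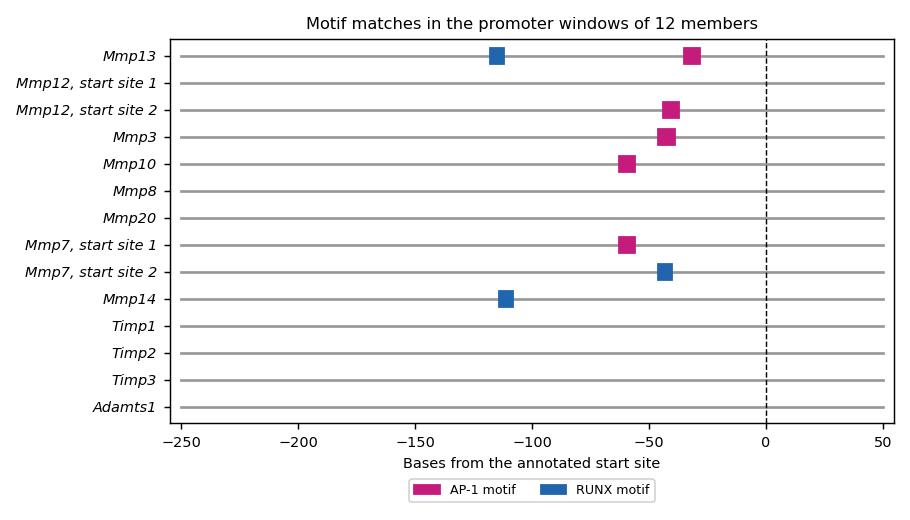
Positions of AP-1 and RUNX motifs in the 300-base RefSeq promoter windows of 12 genes, with bases from the annotated start site on the horizontal axis (dashed line at the start). The AP-1 matches of the 5 neighbouring Mmp genes lie within 63 bases before the start, and the lines of Timp1, Timp2, Timp3, Adamts1, Mmp8 and Mmp20 carry no match.

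The comparison of Ti with CTL asked which of these genes differed in preosteoblasts exposed to particles. Timp1 was higher and 6 genes, Timp3, Mmp9, Adamts1, Adamts2, Adamts10 and Adamtsl3, were lower in the Ti library by 2-fold or more. These are 7 of the 32 genes (21.9%), against 7.26% of all genes past the same limit. By direction, 3.12% of the 32 genes were higher, against 3.63% of all genes, and 18.8% were lower, against 3.64% of all genes. The median difference in log2(FPKM + 1) was -0.36 for the 32 genes and 0.08 for all genes. Of the 32 genes 25 were below 0, against 4961 of all 11137 genes. With a limit of 1.5-fold, 1 gene was higher and 11 (34.4%) were lower, against 15.5% and 11.3% of all genes. Adam19 and Adamts6 passed the filter through CTL alone, which favoured this direction. Both are among the 25, and Adamts6 is among the 11. The same 7 genes were past 2-fold under each of 4 scalings of the libraries (as deposited, to equal FPKM sums, by the median of ratios and by the upper quartile). Equal sums, as in TPM, moved the median of all genes to -0.13 and left only Timp1, Mmp14 and Adamtsl4 of the 32 genes above 0.

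In Ti+Se-Met against CTL, Timp1 was again higher and 5 genes were lower (Timp3, Mmp9, Adamts1, Adamts10 and Adamtsl3), 6 of the 32 genes (18.8%) against 5.96% of all genes. The lower genes were 15.6% of the 32, against 3.32% of all genes, and the median difference was -0.34 for the 32 genes and 0.01 for all. At 1.5-fold, 1 gene was higher and 9 (28.1%) were lower, against 10.4% and 11.7% of all genes. Adamts6, which passed the filter through CTL alone, is among the 9. Both comparisons share the CTL library, so an error in that library would appear in both. Between Ti+Se-Met and Ti, 0 of the 32 genes were 2-fold apart, against 0.224% of all genes (0.162% higher and 0.0629% lower), and the members' differences lay between -0.26 and 0.56 on the log2(FPKM + 1) scale. The interval of the ratio, on the deposited scale, left out equal levels in 25 of the 32 genes for Ti against CTL, in 27 for Ti+Se-Met against CTL and in 17 for Ti+Se-Met against Ti. The share of all genes with such an interval was not computed, so these counts are not read as a trait of these families. Whether any of the differences exceeds the variation between cultures was not tested.

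**Figure D2:**
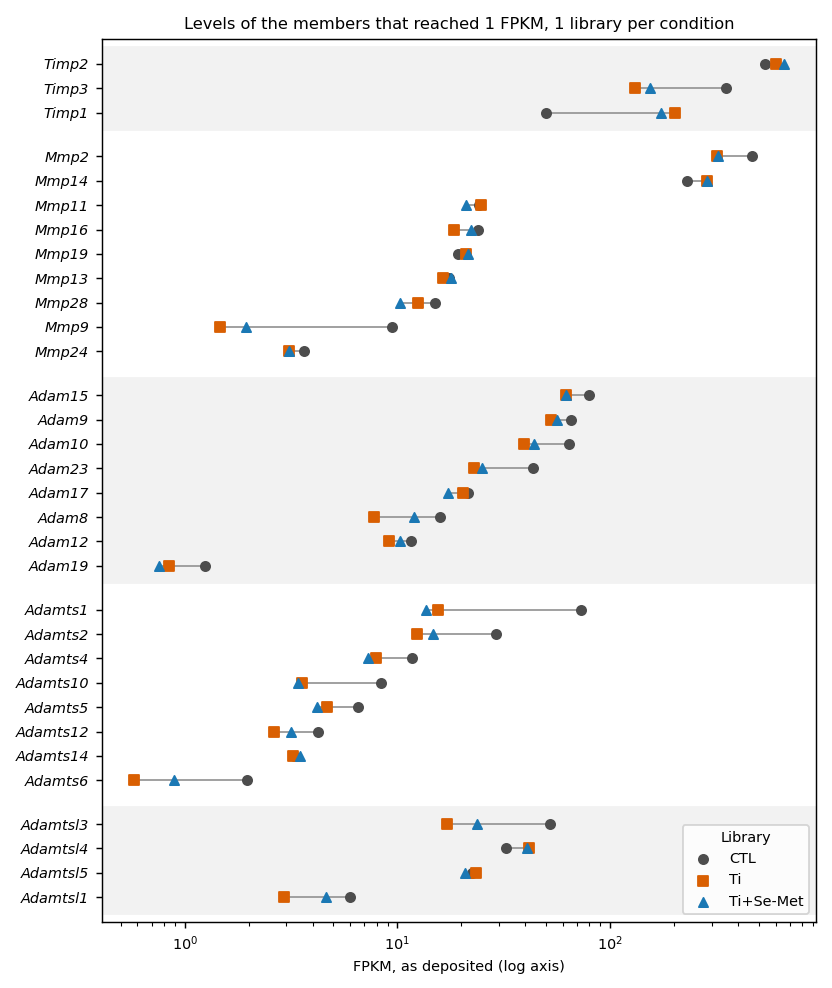
FPKM (log axis) of the 32 genes that reached 1 FPKM, grouped by family, with 1 point per library (circle CTL, square Ti, triangle Ti+Se-Met). Timp1 sits to the right in both particle libraries (202.48 and 173.09 against 49.72 in CTL), and Timp3, Mmp9, Adamts1 and Adamtsl3 sit to the left.

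**Figure D3:**
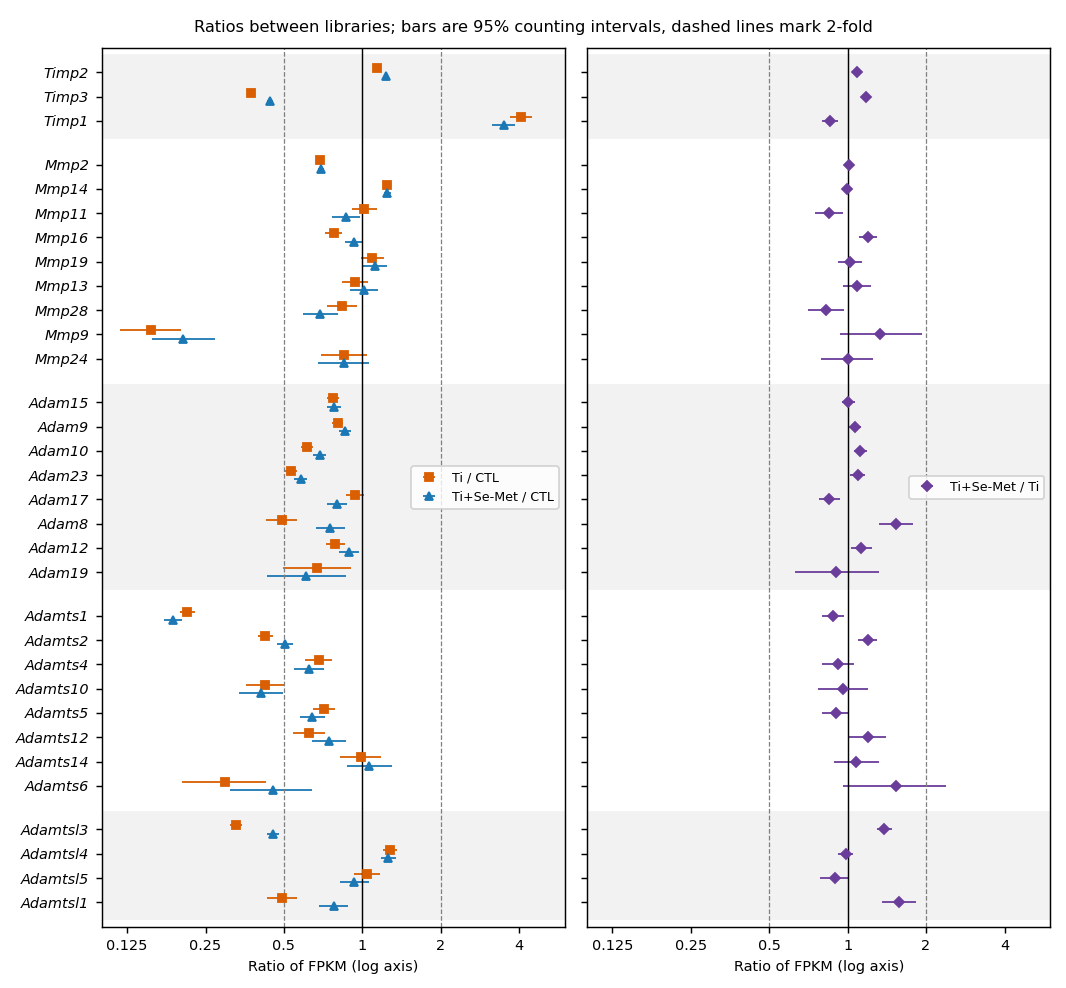
Ratios of FPKM between libraries (log axis) with 95% counting intervals, against CTL on the left and Ti+Se-Met against Ti on the right, where dashed lines mark 2-fold. On the left, Timp1 lies beyond 2-fold above and Mmp9 and Adamts1 lie farthest below, while on the right all 32 points lie between the dashed lines.

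The 3 TIMPs listed were all abundant, and they differed in opposite directions. Timp1, a secreted inhibitor known to respond to growth factors and cytokines, had 49.72 FPKM in CTL, 202.48 with Ti and 173.09 with Ti+Se-Met. It was therefore low in CTL and high in both particle libraries. The ratio was 4.07 (95% interval 3.70 to 4.49) for Ti against CTL, 3.48 (3.14 to 3.86) for Ti+Se-Met against CTL and 0.855 (0.798 to 0.916) for Ti+Se-Met against Ti. Its place among all genes ordered by level moved from 1574 in CTL to 345 with Ti and 406 with Ti+Se-Met.

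Timp3, the inhibitor that binds to the matrix and also acts on Adam17 and the aggrecanases, had 350.87 FPKM in CTL, 131.42 with Ti and 154.82 with Ti+Se-Met. The order was the reverse of that of Timp1, with CTL high and both particle libraries low. The ratio was 0.375 (0.365 to 0.384) for Ti against CTL, 0.441 (0.430 to 0.453) for Ti+Se-Met against CTL and 1.18 (1.14 to 1.22) for Ti+Se-Met against Ti. Timp3 lies within Syn3 on the other strand and shares 1733 exon bases (21.3% of its own) with it in the annotation. Syn3 had at most 0.47 FPKM. Timp1 lies within Syn1 on the other strand and shares 0 exon bases with it.

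Timp2, which binds both Mmp14 and the inactive form of Mmp2 and helps to activate the latter, was the most abundant gene of the 56, with 532.86 FPKM in CTL, 603.89 with Ti and 656.49 with Ti+Se-Met. The 3 values lay close together, and the ratio of Ti to CTL, 1.13 (1.12 to 1.15), turned to 0.966 with equal FPKM sums, so no direction is given. The summed TIMP level was 933.45 FPKM in CTL, 937.79 with Ti and 984.40 with Ti+Se-Met, a ratio of 1.00 (Ti to CTL) as deposited and 0.856 with equal sums. What differed was the make-up within the library, which no scaling changes. Timp1 made up 5.33% of the TIMP sum in CTL, 21.6% with Ti and 17.6% with Ti+Se-Met, and Timp3 made up 37.6%, 14.0% and 15.7%. Timp1 stood at 0.142 times Timp3 in CTL, at 1.54 times with Ti and at 1.12 times with Ti+Se-Met.

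**Figure D4:**
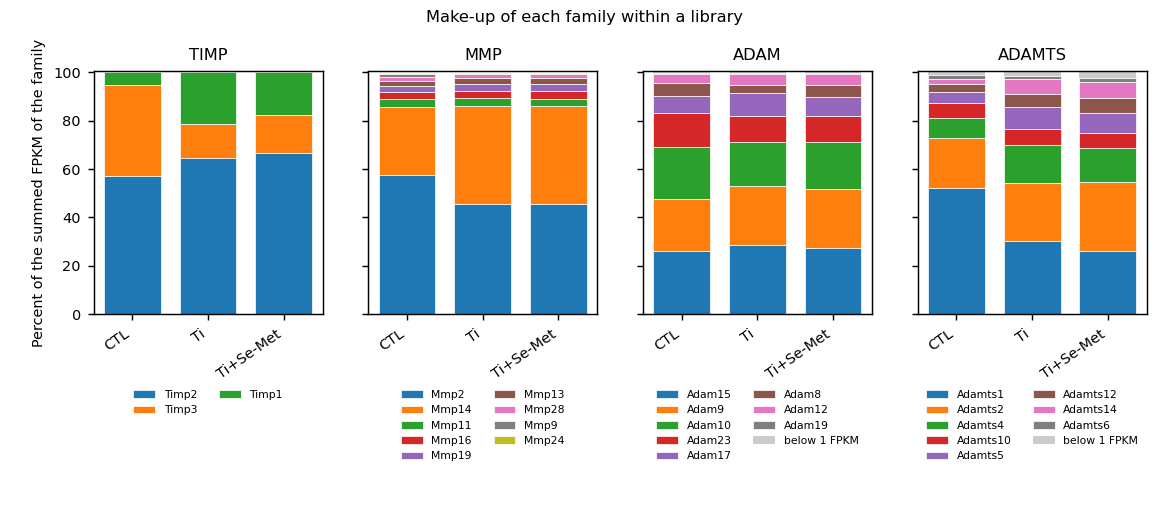
Share of each gene in the summed FPKM of its family (percent, stacked bars) in the 3 libraries, for the TIMP, MMP, ADAM and ADAMTS families, with genes below 1 FPKM in grey. Timp1 grows from 5.33% to 21.6% of the TIMP bar between CTL and Ti, and Adamts1 shrinks from 52.1% to 30.3% of the ADAMTS bar.

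Among the MMPs, Mmp2 and Mmp14 made up most of the family in each library, and Mmp9 was the one MMP that was 2-fold or more apart. Mmp2, the gelatinase that stromal cells secrete, had 465.25 FPKM in CTL, 319.26 with Ti and 322.61 with Ti+Se-Met. It was lower in both particle libraries, with a ratio of 0.686 (0.671 to 0.701) for Ti against CTL, and the particle libraries differed by less than the counting error, with a ratio of 1.01 (0.985 to 1.04). Mmp9, the other gelatinase, had 9.48 FPKM in CTL, 1.46 with Ti and 1.95 with Ti+Se-Met, which rest on about 407, 65 and 62 fragments. The ratio was 0.154 (0.117 to 0.201) for Ti against CTL and 0.206 (0.156 to 0.271) for Ti+Se-Met against CTL. For Ti+Se-Met against Ti it was 1.34 (0.932 to 1.93), an interval that holds equal levels. The summed level of the macrophage and osteoclast markers was not lower in Ti, and the defining markers Cd68, Csf1r and Acp5 were at 0.06 FPKM or less in CTL. Lyz2, of the same list, was lower together with Mmp9, with 26.72 FPKM in CTL, 14.76 with Ti and 12.42 with Ti+Se-Met, while Cd14 (5.70, 16.56 and 14.81 FPKM) and Ctsk (17.78, 29.68 and 26.22 FPKM) were higher with particles. Their part in the result was not tested.

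Mmp14, the membrane-type MMP that cuts collagen and activates the Mmp2 protein at the cell surface, had 228.84 FPKM in CTL, 285.48 with Ti and 284.59 with Ti+Se-Met. The ratio was 1.25 (1.21 to 1.28) for Ti against CTL, and 1.06 with equal FPKM sums. Mmp2 and Mmp14 thus differed in opposite directions as deposited, and within the library Mmp2 stood at 2.03 times Mmp14 in CTL, 1.12 times with Ti and 1.13 times with Ti+Se-Met. The other membrane-type MMPs were lower in abundance. Mmp16 had 23.83, 18.46 and 22.10 FPKM in the order CTL, Ti, Ti+Se-Met, and Mmp24 had 3.64, 3.09 and 3.09. Mmp16 was lowest in Ti, at 0.775 (0.720 to 0.833) times CTL, while the interval of Mmp24 held equal levels. Mmp24 shares 13.6% of its exon bases with a gene on the other strand, and reads of the pair cannot be told apart without strand. The membrane-type group summed to 257.30, 307.64 and 310.43 FPKM, with a ratio of Ti to CTL of 1.20 as deposited and 1.02 with equal sums.

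Mmp13, the main collagenase of mouse osteoblasts and hypertrophic chondrocytes, had close values as deposited, with 17.56 FPKM in CTL, 16.41 with Ti and 17.79 with Ti+Se-Met. Each of its 3 intervals held equal levels, and that of Ti against CTL ran from 0.835 to 1.05, so a 2-fold difference lay outside what counting error allows. With equal FPKM sums the ratio of Ti to CTL was 0.796, below this interval. Its neighbours with an AP-1 motif close to the start, whose sequences are printed above, had at most 0.51 FPKM (Mmp3, in Ti+Se-Met), and the highest of them rested on 9 estimated fragments. At this depth differences in Mmp3, Mmp7, Mmp10 and Mmp12 were not detectable.

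Of the remaining MMPs that reached 1 FPKM, none was 1.5-fold apart from CTL in Ti. Mmp11 (stromelysin 3) had 24.29 FPKM in CTL, 24.70 with Ti and 21.03 with Ti+Se-Met. Mmp19 had 19.22, 20.95 and 21.44 in the same order, with 22.3% of its exon bases shared with a gene on the other strand. Mmp28 (epilysin) had 14.97, 12.50 and 10.31, lowest in Ti+Se-Met at 0.689 (0.589 to 0.805) times CTL. The summed MMP level was 808.91 FPKM in CTL, 703.70 with Ti and 706.43 with Ti+Se-Met, and it stood at 0.867, 0.75 and 0.718 times the summed TIMP level, a ratio that no scaling between libraries changes and that counts mRNA, not active enzyme.

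A list of 30 activators and inhibitors of these enzymes, chosen with earlier results of these data known, was looked up beside them. Of the 26 listed, 16 reached 1 FPKM, and in Ti against CTL 1 was higher (Plaur) and 2 were lower (Serpine2 and Reck), against 3.63% and 3.64% of all genes, with a median log2 difference of -0.02. Reck, a membrane-anchored inhibitor of Mmp2, Mmp9 and Mmp14, had 14.39 FPKM in CTL, 6.62 with Ti and 8.14 with Ti+Se-Met. It was lower in both particle libraries, at 0.460 (0.409 to 0.518) times CTL in Ti and 0.566 (0.499 to 0.640) times in Ti+Se-Met, the latter not past 2-fold. Plaur, the receptor of the plasminogen activator urokinase, had 5.95, 19.06 and 22.25 FPKM. Serpine2, an inhibitor of urokinase and thrombin, had 101.40, 45.59 and 46.09 FPKM. The plasminogen system around these enzymes therefore held genes on both sides. Furin, the convertase that activates membrane-type MMPs and ADAMs, had 29.29, 36.36 and 36.41 FPKM, and Plau (urokinase) had 26.60, 35.43 and 36.62, neither past 2-fold. Bsg (basigin, an inducer of MMPs) had 841.42, 948.08 and 842.67 FPKM.

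None of the 8 ADAM genes that reached 1 FPKM was 2-fold or more apart in any comparison. In FPKM as deposited each was below CTL in Ti, Adam17 by less than the counting error. Of all 11137 genes, 4961 were below CTL in Ti. For Adam19, which reached 1 FPKM in CTL alone, the filter favoured this direction. The summed level of the family was 304.68 FPKM in CTL, 215.68 with Ti and 228.61 with Ti+Se-Met. Adam10, the sheddase of Notch receptors and of many adhesion molecules, had 64.17 FPKM in CTL, 39.32 with Ti and 43.94 with Ti+Se-Met. It was lower in both particle libraries, at 0.613 (0.583 to 0.644) times CTL in Ti. Adam17, the sheddase of tumour necrosis factor and of ligands of the epidermal growth factor receptor, had 21.58, 20.24 and 17.24 FPKM. The interval of its ratio of Ti to CTL, 0.938 (0.867 to 1.01), held equal levels, but the ratio was 0.799 with equal FPKM sums. That of Ti+Se-Met to CTL, as deposited, was 0.799 (0.729 to 0.873). Adam10 accordingly stood at 2.97 times Adam17 in CTL, 1.94 times with Ti and 2.55 times with Ti+Se-Met.

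Adam15 was the most abundant ADAM, with 79.92 FPKM in CTL, 61.79 with Ti and 62.23 with Ti+Se-Met. Adam9 had 65.73, 52.87 and 56.57 FPKM in the same order. Both were lower in Ti than in CTL, at 0.773 and 0.804 times. Adam23, which lacks an active zinc site and binds integrins, had 43.22, 22.94 and 25.05 FPKM, a ratio of 0.531 (0.503 to 0.560) for Ti against CTL. Adam12 (meltrin alpha) had 11.61, 9.12 and 10.29 FPKM. Adam19 (meltrin beta) had 1.25, 0.84 and 0.76 FPKM, from 111, 77 and 50 fragments. Adam8, best known from leukocytes and osteoclasts, had 15.93 FPKM in CTL, 7.80 with Ti and 11.99 with Ti+Se-Met. Ti was low, CTL high and Ti+Se-Met between them, and the part of leukocytes or osteoclasts in this order was not tested. The ratio was 0.490 (0.428 to 0.559) for Ti against CTL, which on the log2(FPKM + 1) scale was -0.94 and so not past 2-fold, and 1.54 (1.33 to 1.79) for Ti+Se-Met against Ti.

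The partners and substrates of Adam10 and Adam17 were taken from lists chosen with earlier results of these data known. Of 9 partners 5 reached 1 FPKM, and 1 of them was higher in Ti than in CTL, against 3.63% of all genes. This was Frmd8, which stabilises the complex of Adam17 with iRhom proteins at the cell surface, with 17.13 FPKM in CTL, 42.41 with Ti and 31.15 with Ti+Se-Met. Its carrier Rhbdf1 (iRhom1) had 26.29, 23.57 and 25.78 FPKM, and Rhbdf2 (iRhom2) did not exceed 0.66. Among the tetraspanins that guide Adam10, Tspan14 had 22.20, 21.14 and 27.85 FPKM and Tspan5 had 4.97, 8.28 and 8.14, neither past 2-fold. Of the 21 shed substrates that reached 1 FPKM, 2 were higher in Ti and 1 was lower, against 3.63% and 3.64% of all genes, with a median of -0.14. The higher ones were Ereg (epiregulin, 0.94, 2.99 and 3.71 FPKM) and Tnfrsf1b (a receptor of tumour necrosis factor, 8.58, 20.40 and 18.75 FPKM), and both fell short of 2-fold with equal sums, where 0 were higher and 2 lower. Ereg reached 1 FPKM only with particles, so the filter favoured its direction. The lower one was App, the amyloid precursor protein, with 301.80, 128.81 and 186.45 FPKM. Notch1, a receptor shed by Adam10, had 19.69, 9.61 and 9.60 FPKM, lower in Ti by 2-fold or more with equal sums but not as deposited. RNA levels do not show whether any of these proteins was shed.

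The ADAMTS family held 3 of the 6 lower genes. Of its 8 genes that reached 1 FPKM, 0 were higher in Ti by 2-fold or more, and the summed level was 140.00 FPKM in CTL, 51.36 with Ti and 52.03 with Ti+Se-Met, a ratio of 0.367 (Ti to CTL) as deposited and 0.313 with equal sums. Adamts1, which cuts the proteoglycans versican and aggrecan, accounted for most of this sum in CTL. It had 72.92 FPKM in CTL, 15.54 with Ti and 13.67 with Ti+Se-Met, from about 4902, 1081 and 676 fragments. CTL stood far above both particle libraries, with a ratio of 0.213 (0.199 to 0.228) for Ti and 0.187 (0.173 to 0.203) for Ti+Se-Met. Its place among all genes moved from 997 in CTL to 5275 with Ti and 5560 with Ti+Se-Met.

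The other aggrecanases were lower by less. Adamts4 had 11.70 FPKM in CTL, 7.94 with Ti and 7.30 with Ti+Se-Met, a ratio of 0.679 (0.603 to 0.762) for Ti against CTL. Adamts5 had 6.53, 4.66 and 4.20 FPKM, a ratio of 0.714 (0.647 to 0.786). Adamts1 and Adamts5 are neighbours on chromosome 16, and Adamts1 stood at 11.2 times Adamts5 in CTL, 3.33 times with Ti and 3.25 times with Ti+Se-Met, so the neighbours differed unequally.

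Adamts2, which removes the amino-terminal propeptide from procollagens I to III, had 29.05 FPKM in CTL, 12.32 with Ti and 14.68 with Ti+Se-Met. The ratio was 0.424 (0.397 to 0.453) for Ti and 0.505 (0.471 to 0.542) for Ti+Se-Met, both against CTL, and as deposited Adamts2 was past 2-fold in Ti but not in Ti+Se-Met, where equal FPKM sums moved the log2 difference from -0.94 to -1.13. The ratio between the particle libraries, 1.19 (1.10 to 1.29) for Ti+Se-Met against Ti, was above 1 by more than the counting error. Adamts14, of the same function, had 3.28, 3.23 and 3.49 FPKM and differed by less than the counting error in each comparison. Adamts10, which binds fibrillin microfibrils, had 8.40 FPKM in CTL, 3.56 with Ti and 3.42 with Ti+Se-Met, low in both particle libraries at 0.424 (0.358 to 0.502) and 0.407 (0.336 to 0.495) times CTL. Its relative Adamts6 had 1.96, 0.58 and 0.89 FPKM from 130, 40 and 43 fragments, where the ratio of Ti to CTL was 0.296 (0.203 to 0.427) and the added 1 kept the log2 difference at -0.91. Adamts12, which cuts cartilage oligomeric matrix protein, had 4.24, 2.64 and 3.16 FPKM.

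Among genes of matrix proteins that these enzymes cut, some were lower with particles and others were not. Of 24 on the list 15 reached 1 FPKM, 8 of which were lower and 0 higher with Ti (against 3.64% and 3.63% of all genes), with a median log2 difference of -1.13. The list was chosen with earlier results of these data known, so setting it against all genes is a description and not a test. In Ti+Se-Met against CTL 0 were higher and 7 lower, against 2.64% and 3.32% of all genes. Among the 7 was Vtn (1.60, 0.38 and 0.12 FPKM), which reached 1 FPKM in CTL alone, so the filter favoured its direction. The collagen genes Col1a1 (1333.19 FPKM in CTL, 354.20 with Ti and 481.63 with Ti+Se-Met) and Col3a1 (416.05, 190.09 and 213.63), which encode substrates of Adamts2, were among the lower ones in Ti. So were Dcn (decorin, 822.73, 231.64 and 245.59 FPKM) and Fbn1 (fibrillin 1, 15.24, 6.25 and 8.02 FPKM). Vcan, which encodes the versican cut by Adamts1, was not, with 38.28, 33.56 and 42.07 FPKM, and neither was the fibronectin gene Fn1, with 1400.47, 1296.64 and 1755.64 FPKM.

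The ADAMTS-like genes all reached 1 FPKM, and 1 of 4 was past 2-fold. Adamtsl3, a matrix protein of the punctin type, had 52.21 FPKM in CTL, 17.13 with Ti and 23.68 with Ti+Se-Met. CTL was high, and Ti+Se-Met lay above Ti by more than the counting error. The ratio was 0.328 (0.311 to 0.346) for Ti against CTL, 0.454 (0.430 to 0.479) for Ti+Se-Met against CTL and 1.38 (1.29 to 1.48) for Ti+Se-Met against Ti. Adamtsl1, also of the punctin type, had 5.97, 2.94 and 4.63 FPKM in the same order of libraries, with ratios of 0.492 (0.430 to 0.562), 0.776 and 1.58 (1.36 to 1.83). Adamtsl4, which promotes fibrillin microfibrils, had 32.54, 41.63 and 40.89 FPKM, at 1.28 (1.20 to 1.36) times CTL in Ti. Adamtsl5 had 22.41, 23.38 and 20.89 FPKM, with an interval for Ti against CTL that held equal levels as deposited and a ratio of 0.889 with equal FPKM sums.

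The 24 genes below 1 FPKM in each library were 9 Mmp, 9 Adam and 6 Adamts genes. They included the collagenase Mmp8, the stromelysins Mmp3 and Mmp10, the macrophage elastase Mmp12 and several ADAMs of testis. For 3 of the 24 the interval of Ti against CTL left out equal levels, all lower in Ti. These were Adamts9 (0.98, 0.19 and 0.31 FPKM, a ratio of 0.194 with an interval of 0.103 to 0.325), Mmp17 (0.82, 0.50 and 0.61) and Adam5 (0.47, 0.14 and 0.16). The share of all genes below 1 FPKM with such an interval was not computed. For Mmp12, Mmp10 and Mmp8 the CTL and Ti+Se-Met libraries were listed at 0 and Ti held at most 2 estimated fragments, too few to compare.

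The comparison of Ti+Se-Met with Ti asked which genes differed when Se-Met was given with the particles. No gene of the 32 was 2-fold apart, and 0 were past 1.5-fold on the log2(FPKM + 1) scale, against 0.844% of all genes higher and 1.28% lower. The largest differences were those of Adam8, Adamtsl1 and Adamtsl3, 0.56, 0.52 and 0.44 in log2(FPKM + 1), each higher in Ti+Se-Met, and in each of the 3 the Ti+Se-Met level lay between Ti and CTL. In 5 genes as deposited, Ti+Se-Met lay outside the range of Ti and CTL, with an interval against Ti that left out equal levels. It lay below both in Adamts1, Mmp28, Adam17 and Mmp11, at 0.880 (0.798 to 0.969), 0.825 (0.702 to 0.967), 0.852 (0.778 to 0.932) and 0.851 (0.752 to 0.963) times Ti, and above both in Timp2, at 1.09 (1.07 to 1.10) times Ti. Scaled by the median of ratios, these ratios were 0.921, 0.864, 0.892, 0.892 and 1.14 in the same order. The intervals hold for the deposited scale, on which the median difference of all genes was -0.06. Whether they leave out equal levels after scaling was not examined. The share of all genes with this pattern was not computed. Of the genes 2-fold or more apart between Ti and CTL, Timp1, Timp3, Mmp9, Adamts2 and Adamtsl3 lay between Ti and CTL in Ti+Se-Met by their FPKM, and Adamts1 and Adamts10 did not. The counting intervals of Ti+Se-Met against Ti held equal levels for Mmp9 and Adamts10. Each of these comparisons uses the Ti library in both directions, so the position between Ti and CTL is a description of 3 libraries and was not tested.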

How the data were processed

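Total RNA from MC3T3-E1 cells was sequenced in 3 libraries. After trimming adapter and poor-quality reads, the authors used HISAT2 for alignment and HTSeq for counting, whereas the submitters' processing notes name HISAT2, SAMtools, StringTie and build mm9. Which tool made the FPKM values is not given in the sources used here. The deposited FPKM values, rounded to 2 decimals, are relative to each library's own total, so a few very abundant genes can shift all others. Log2 differences were taken after adding 1, in Python 3.11.15 with pandas 2.3.3, scipy 1.17.1 and numpy 2.4.6. Depth was estimated from single-fragment steps in 453 short genes (1 transcript, 350 to 1000 bases, less 150), with GENCODE M21 lengths on GRCm38. Of the low values used, 51.3% of 119 in CTL, 40.9% of 93 in Ti and 36.3% of 91 in Ti+Se-Met lay on a step, against 12.1%, 12.2% and 9.55% by chance, so estimated fragments are approximate, most of all for genes with several transcripts. The table holds no coordinates, and those printed are of RefSeq promoters on GRCm38.p6. The steps were tested on simulated data. All the chosen genes that reached 1 FPKM are named. Some genes of the other lists are not reported here. The genes and lists were chosen with earlier results of these data known. Strand was not stated to be used in counting. Protein sequences were not analysed here. Other settings tried were limits of 1.5-fold and 4-fold, 3 other scalings, pseudocounts of 0.1 and 5, and a filter either dropped or set to a mean FPKM of 5.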

Additional observations from a re-analysis of the deposited data

How the results depend on the processing

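For Ti against CTL, the 7 genes past 2-fold became 12 with a limit of 1.5-fold and 3 with 4-fold (Adamts1, Mmp9 and Timp1). Adamts6, which passed the filter through CTL alone, is among the 12. The 7 genes became 11 with equal FPKM sums, which added Adam8, Adam23, Adamts6 and Adamtsl1. Equal sums lower all Ti ratios by construction, and over all genes the split of 404 higher and 405 lower became 185 and 674. For Ti+Se-Met against CTL, the 6 genes became 10 with 1.5-fold and 1 with 4-fold (Adamts1), and the split over all genes went from 294 higher and 370 lower to 174 and 614 with equal sums. Pseudocounts of 0.1 and 5 gave 9 and 5 genes for Ti against CTL, and 7 and 4 for Ti+Se-Met against CTL. For Ti+Se-Met against Ti the count was 0 in each alternative run. Of 651 gene ratios under an alternative, 0 of those past 2-fold changed direction, and 104 moved outside their counting interval. The ratio of summed MMP to summed TIMP levels with genes of a mean FPKM of at least 5 was 0.851 in CTL, 0.744 with Ti and 0.711 with Ti+Se-Met. No paired analysis was possible because there was only 1 library for each condition. Depth limits the low genes most in Ti+Se-Met, where 1 fragment of a transcript of 1000 bases was worth 0.113 FPKM.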

Other observations

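Genes outside the symbol rule that carry the Gene Ontology term for metalloendopeptidase activity were looked up, a list added after the data were seen. The term held 87 listed genes, of which 51 were among the genes chosen by symbol and 36 were not. Of these 36 genes, 27 reached 1 FPKM, and 0 were higher and 4 lower by 2-fold or more in Ti than in CTL, against 3.63% and 3.64% of all genes, with a median log2 difference of 0.08. Pappa2, a protease that cuts binding proteins of insulin-like growth factors, had 204.94 FPKM in CTL, 41.66 with Ti and 38.87 with Ti+Se-Met. Thsd4, also known as ADAMTS-like 6, had 17.26, 3.14 and 3.46 FPKM. It carries the term although ADAMTS-like proteins lack the protease domain. Mme (neprilysin, which degrades small peptides) had 22.22, 7.69 and 8.09 FPKM, and Ece2, an endothelin-converting enzyme, had 28.26, 12.53 and 15.98. In all 4, CTL was high and both particle libraries were low. Pappa, a relative of Pappa2 with the same kind of substrate, was on the other side, with 4.52 FPKM in CTL, 8.94 with Ti and 8.26 with Ti+Se-Met, and so was the cytosolic peptidase Thop1 with 17.70, 34.30 and 32.29 FPKM, neither past 2-fold on the log2(FPKM + 1) scale. Between Ti+Se-Met and Ti, 0 of the 27 genes were 2-fold apart.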
